A study of Homo sapiens with 8 samples.

Results

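The mevalonate arm of sterol synthesis was followed here in spheroids of 2 pancreatic cancer cell lines. It is represented by 9 genes (ACAT2, HMGCS1, MVK, PMVK, MVD, IDI1, FDPS, GGPS1 and FDFT1), taken by gene name from a table of 62649 genes, in which all 9 were found. AsPC-1 and PANC-1 are established human lines, labelled as wild type, the first grown from the ascites of a patient with pancreatic adenocarcinoma and the second from a primary ductal carcinoma. Cells were kept for 3 days in a methylcellulose medium, in which they form spheroids, and then received vehicle, 10 µM roseoflavin, 1 nM trametinib or both compounds for 24 h. Roseoflavin is a bacterial analogue of riboflavin, and trametinib inhibits the MEK kinases upstream of ERK. Each of the 8 combinations of line and treatment was sequenced as 1 library from mRNA, so no group had replicates, and all errors below come from models that use the lines and the other compound as replication.

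The pathway joins acetyl-CoA units into mevalonate, phosphorylates and decarboxylates mevalonate to the 5-carbon isoprenoid units, and condenses these into farnesyl and geranylgeranyl diphosphate. Farnesyl diphosphate is then used for squalene, the first compound committed to sterols, or for protein prenylation, dolichol and ubiquinone. In most cells these genes are transcribed under SREBP2, a membrane-bound factor that is released to the nucleus when sterols in the endoplasmic reticulum are low, and that works on promoters together with NF-Y and Sp1. The prenyl groups made here anchor RAS and other small GTPases to membranes.

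Levels are in TPM (a unit scaled by transcript length and to a common total), which keep no depth and allow no counting error. They can be compared between genes only as far as reads were assigned to the right gene. Exons shared with other genes, as for GGPS1 and ACAT2 (below), limit this. Transcripts of the mitochondrial genome took between 41.2% and 44.1% of the TPM in AsPC-1 and between 22.8% and 25.6% in PANC-1. Epithelial markers (EPCAM, CDH1 and 3 keratins) summed to between 7392 and 8509 TPM in AsPC-1 and between 2709 and 3029 TPM in PANC-1, and all 5 reached 1 TPM in both lines. EPCAM was between 1224 and 1485 TPM in AsPC-1 but between 14.5 and 16.8 TPM in PANC-1. CDH1 was between 56.1 and 78.7 TPM in AsPC-1 and between 5.0 and 6.6 TPM in PANC-1. VIM led 4 mesenchymal markers, which summed to between 668 and 825 TPM in AsPC-1 and between 3155 and 3416 TPM in PANC-1. VIM alone was between 660 and 816 TPM in AsPC-1 and between 3132 and 3391 TPM in PANC-1. ZEB1 was between 7.67 and 9.06 TPM in AsPC-1 and between 16.9 and 18.8 TPM in PANC-1. CDH2 was at 0 TPM in AsPC-1 and between 5.48 and 5.57 TPM in PANC-1. FN1 reached at most 0.533 TPM. Of the leukocyte markers CD68 was between 108 and 139 TPM and CD14 between 0.473 and 4.10 TPM, while PTPRC and CD3E reached at most 0.019 and 0 TPM, and the 3 endothelial markers together reached at most 0.096 TPM. Of the fibroblast markers only COL1A1 (PANC-1) and LUM (AsPC-1) reached 1 TPM.

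Within AsPC-1 the most abundant member was FDFT1, squalene synthase, with 87.0 ± 5.82 TPM (mean ± SD over the 4 treatments), next to FDPS, farnesyl diphosphate synthase, with 82.1 ± 4.16 TPM. The ranges of these 2 genes overlapped over the 4 libraries. They were followed by PMVK (68.9 ± 4.14 TPM), HMGCS1 (51.9 ± 5.78), IDI1 (37.0 ± 5.43), ACAT2 (36.6 ± 4.18), GGPS1 (30.9 ± 1.56), MVD (18.3 ± 1.85) and MVK (5.58 ± 0.264 TPM). Among these neighbours only IDI1 and ACAT2 overlapped. The order differed in PANC-1, where PMVK was highest (79.5 ± 2.16 TPM) and overlapped with FDPS (76.7 ± 8.50 TPM), and where ACAT2 followed with 60.6 ± 5.36 TPM. IDI1 (42.4 ± 5.96), GGPS1 (42.1 ± 3.98), MVD (39.2 ± 6.54), HMGCS1 (31.0 ± 4.77) and FDFT1 (30.6 ± 3.63 TPM) formed a run in which each overlapped with the next. MVK, the mevalonate kinase, was lowest in both lines and stood at 6.79 ± 0.498 TPM in PANC-1.

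**Figure D1:**
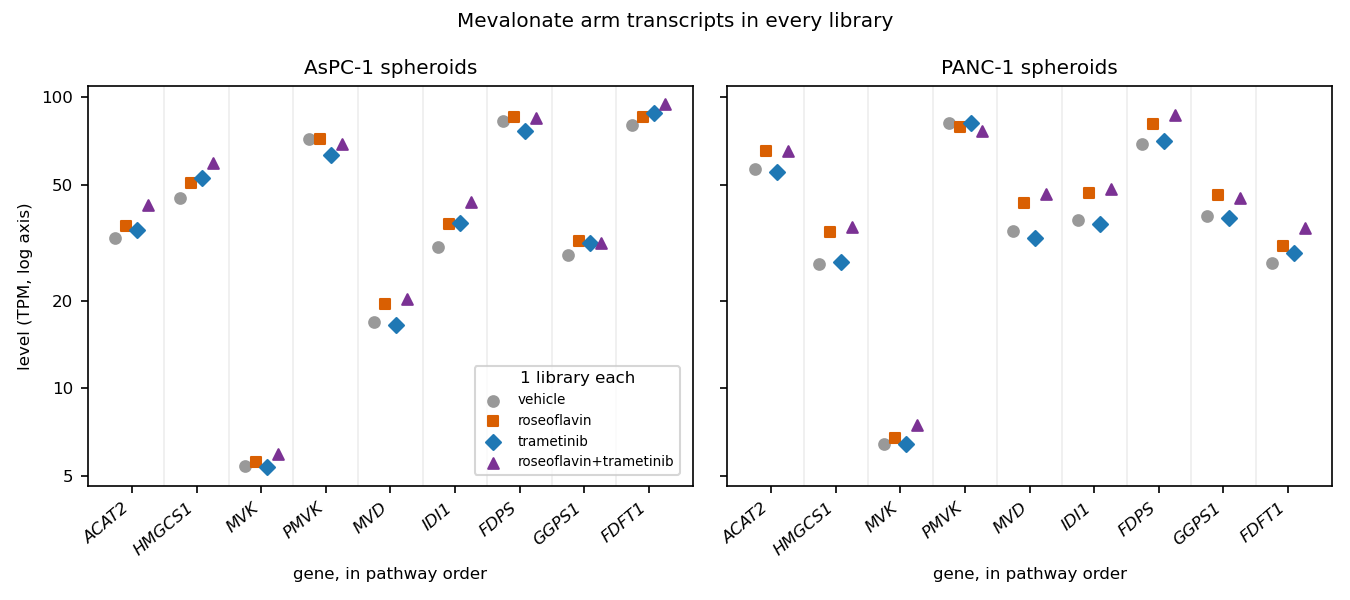
Level of each member in every library, in TPM on a log axis, with genes in pathway order and 1 point per library. MVK lies near 5 to 7.5 TPM in both lines, FDFT1 is between 80.3 and 94.3 TPM in AsPC-1 but between 26.9 and 35.4 TPM in PANC-1, and in PANC-1 the points with roseoflavin lie above those without it for 8 of the 9 genes.

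The first comparison asked how the members responded to roseoflavin, at the same line and the same trametinib state. In 7 of 9 members the library with roseoflavin was the higher one in 4 of 4 such comparisons, against 4.91% of the 19122 genes tested. The exceptions were PMVK and GGPS1. The members were chosen with earlier results of these data known, so shares of all genes are given as description and not as a test. The changes were small, between 0.943-fold and 1.41-fold for single comparisons, and a difference of at least 1.2-fold was less common. In AsPC-1 it was reached by 1 of 9 members without trametinib (IDI1, 4.88% of all genes) and by 2 of 9 with trametinib (ACAT2 and MVD, 8.1%). In PANC-1 it was reached by 3 of 9 without trametinib (HMGCS1, MVD and IDI1, 8.26%) and by 5 of 9 with it (FDPS and FDFT1 in addition, 10.2%). The members' median log2(TPM + 1) difference was 0.14 without and 0.15 with trametinib in AsPC-1, where all genes had -0.046 and -0.0048. For PANC-1 the members' medians were 0.22 and 0.27, and those of all genes 0 and 0. When TPM was rescaled without the mitochondrial genome, the members' medians came to 0.21 and 0.13 (AsPC-1) and to 0.19 and 0.24 (PANC-1), so that without trametinib the lines changed places.

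The entry steps are made by ACAT2, the cytosolic thiolase that joins acetyl-CoA into acetoacetyl-CoA, and HMGCS1, which adds the third acetyl unit to give HMG-CoA. ACAT2 (ENSG00000120437, chromosome 6, 159760328 to 159779055, plus strand) was at 32.8 TPM with vehicle and 36.2 TPM with roseoflavin in AsPC-1, and at 35.0 and 42.6 TPM when trametinib was present. In PANC-1 ACAT2 was at 56.7 and 65.3 TPM without trametinib and at 55.2 and 65.1 TPM with it. In both lines the 2 roseoflavin libraries were above the 2 others, with no overlap. HMGCS1 (ENSG00000112972, chromosome 5, 43289395 to 43313512, minus strand) was at 45.1 and 50.7 TPM in AsPC-1 without trametinib and at 52.6 and 59.1 TPM with it, so that the AsPC-1 groups with and without roseoflavin overlapped. In PANC-1 HMGCS1 was at 26.7 and 34.3 TPM, and at 27.1 and 35.8 TPM with trametinib, a 1.29-fold and a 1.32-fold difference with no overlap.

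Mevalonate is next phosphorylated by MVK and PMVK and decarboxylated by MVD. MVD (ENSG00000167508, chromosome 16, 88651935 to 88663161, minus strand) was at 16.9 TPM with vehicle, 19.4 with roseoflavin, 16.5 with trametinib and 20.3 with both in AsPC-1. In PANC-1 MVD was at 34.6, 43.1, 32.8 and 46.3 TPM in the same order, and the last pair is the largest roseoflavin ratio among the members (1.41-fold). MVK (ENSG00000110921, chromosome 12, 109573255 to 109598117, plus strand) was at 5.42, 5.60, 5.36 and 5.95 TPM in AsPC-1 and at 6.47, 6.74, 6.43 and 7.50 TPM in PANC-1. For MVD and MVK the roseoflavin libraries lay above the others in both lines without overlap, for MVK by small steps. PMVK (ENSG00000163344, chromosome 1, 154924734 to 154936991, minus strand) was at 71.9, 71.7, 63.0 and 68.8 TPM in AsPC-1 and at 81.0, 79.1, 81.2 and 76.5 TPM in PANC-1. PMVK was thus lower with roseoflavin in both PANC-1 comparisons and in 1 of 2 AsPC-1 comparisons, whereas GGPS1 was lower in 1 comparison and the other 7 members in none.

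IDI1 interconverts the pair of 5-carbon isoprenoid diphosphates. IDI1 (ENSG00000067064, chromosome 10, 1039152 to 1049170, minus strand) was at 30.4 TPM with vehicle, 36.8 with roseoflavin, 37.0 with trametinib and 43.7 with both in AsPC-1, so each compound went with a higher level there and the groups overlapped. In PANC-1 IDI1 was at 37.7, 46.6, 36.8 and 48.3 TPM, and only the roseoflavin libraries were high.

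Chain elongation is carried out by FDPS and GGPS1, which make farnesyl and geranylgeranyl diphosphate, and FDFT1 condenses farnesyl diphosphate to squalene. FDPS (ENSG00000160752, chromosome 1, 155308748 to 155320666, plus strand) was at 82.6, 85.3, 76.1 and 84.5 TPM in AsPC-1 and at 68.9, 80.5, 70.5 and 86.9 TPM in PANC-1, in the order vehicle, roseoflavin, trametinib and both. GGPS1 (ENSG00000152904, chromosome 1, 235327350 to 235344532, plus strand) was at 28.6, 32.1, 31.5 and 31.4 TPM in AsPC-1 and at 39.0, 46.2, 38.4 and 44.9 TPM in PANC-1. FDFT1 (ENSG00000079459, chromosome 8, 11795573 to 11839309, plus strand) was at 80.3, 85.4, 87.9 and 94.3 TPM in AsPC-1 and at 26.9, 30.9, 29.2 and 35.4 TPM in PANC-1. For all 3 genes the PANC-1 libraries with roseoflavin were above those without it. In AsPC-1 only FDPS showed this separation. Exons of GGPS1 and of TBCE (ENSG00000285053), a tubulin chaperone gene on the same strand, share 1422 bases, 37.3% of the annotated exon bases of GGPS1, so reads there cannot be assigned to one gene with certainty. TBCE was at 56.8 TPM with vehicle and 63.2 TPM with roseoflavin in PANC-1, and at 34.8 and 35.9 TPM in AsPC-1. Exons of ACAT2 overlap on the opposite strand with those of SOD2 (26.5% of the ACAT2 exon bases), SOD2-OT1 (33.9%) and TCP1 (9.24%), and the strand setting of the counting is not given in the sources used here.

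**Figure D2:**
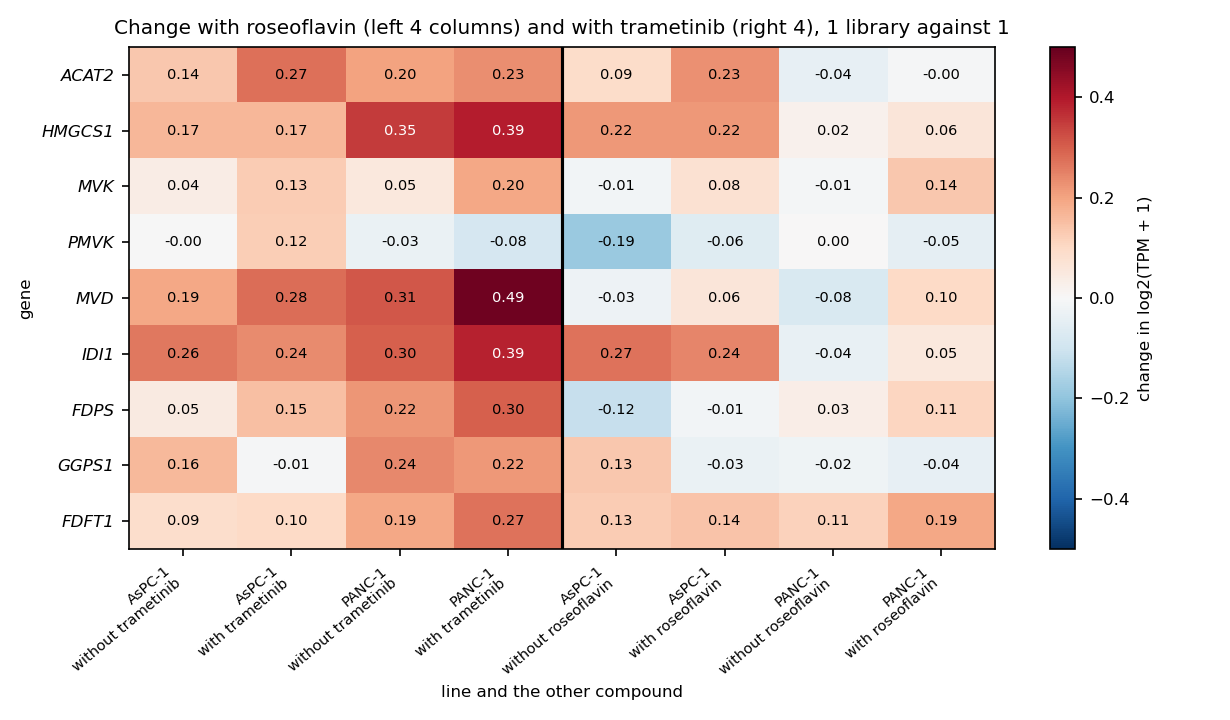
Difference in log2(TPM + 1) between 1 library with a compound and 1 without it, for roseoflavin in the 4 left columns and trametinib in the 4 right columns. Red cells are higher with the compound and blue cells lower; MVD in PANC-1 with trametinib present has the largest roseoflavin value, 0.49, and PMVK is the one gene with 3 roseoflavin values below 0.

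A linear model (limma) across all 19122 genes estimated the roseoflavin effect from 4 libraries against 4, with line and trametinib as terms. No gene passed a Benjamini-Hochberg adjusted p of 0.05 (0.0% of genes, with 1358 under 0.05 before adjustment), so none of the 9 members is called changed. The estimate was 0.32 for MVD (SE 0.0530), 0.30 for IDI1 (SE 0.0627), 0.27 for HMGCS1 (SE 0.0620), 0.21 for ACAT2 (SE 0.0510), 0.18 for FDPS (SE 0.0539), 0.16 for FDFT1 (SE 0.0422), 0.15 for GGPS1 (SE 0.0515), 0.10 for MVK (SE 0.0486) and 0.00080 for PMVK (SE 0.0466), which was -0.0050 on the rescaled values. The adjusted p ran from 0.595 (MVD) to 0.998 (PMVK). Before adjustment, 7 of the 9 members had a higher level at the 0.05 threshold, against 2.03% of all genes, and MVK and PMVK did not. The interval of PMVK (unadjusted, 95%) ran from -0.11 to 0.11. In bulk RNA a lower level per cell and a lower share of cells that express a gene cannot be told apart.

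With the lines kept apart, the model gave each line its own effect from 2 libraries against 2, again with 0.0% of genes past the adjusted threshold in either line (2163 genes before adjustment in AsPC-1 and 2074 in PANC-1). The residual spread was taken from all 8 libraries together, so a gene has the same SE in both lines. In PANC-1, MVD had an estimate of 0.40 (SE 0.0634, adjusted p 0.335), HMGCS1 of 0.37 (SE 0.0381, adjusted p 0.245), IDI1 of 0.34 (SE 0.0437, adjusted p 0.275) and FDPS of 0.26 (SE 0.0471, adjusted p 0.373). FDFT1 (0.23), GGPS1 (0.23) and ACAT2 (0.22) followed there. In AsPC-1, IDI1 had an estimate of 0.25 (SE 0.0437, adjusted p 0.373), MVD of 0.24 (SE 0.0634, adjusted p 0.395), ACAT2 of 0.20 (SE 0.0511, adjusted p 0.388) and HMGCS1 of 0.17 (SE 0.0381, adjusted p 0.380), while FDPS (0.10) and FDFT1 (0.09) were lower in the order. Before adjustment 4 of 9 members were higher in AsPC-1 (2.75% of all genes) and 7 of 9 in PANC-1 (5.84%). By complete separation of the libraries, 8 of 9 members were higher with roseoflavin in PANC-1, where 22.9% of all genes were, and 4 of 9 in AsPC-1 (ACAT2, MVK, MVD and FDPS), where 10.6% were.

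The difference between the lines was tested directly as an interaction, PANC-1 change minus AsPC-1 change. It was positive for 8 of 9 members, with PMVK (-0.12) the exception, and for 58.0% of all genes. The median over the members was 0.14, against 0.036 over all genes. After quantile normalization it was positive for 6 of 9 members and 48.5% of all genes (medians 0.12 and -0.0064). After rescaling it was positive for 6 of 9 members and 47.5% of all genes (medians 0.080 and -0.013). No member passed, and 0.0% of all genes did (2227 before adjustment). The largest was HMGCS1 with 0.21 (SE 0.0539, adjusted p 0.370), the one member with an unadjusted p under the threshold, which 8.11% of all genes reached with a positive difference. For ACAT2 the difference was 0.012 (unadjusted 95% interval -0.19 to 0.22), and the sign turned on both other scales (-0.024 and -0.051).

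**Figure D3:**
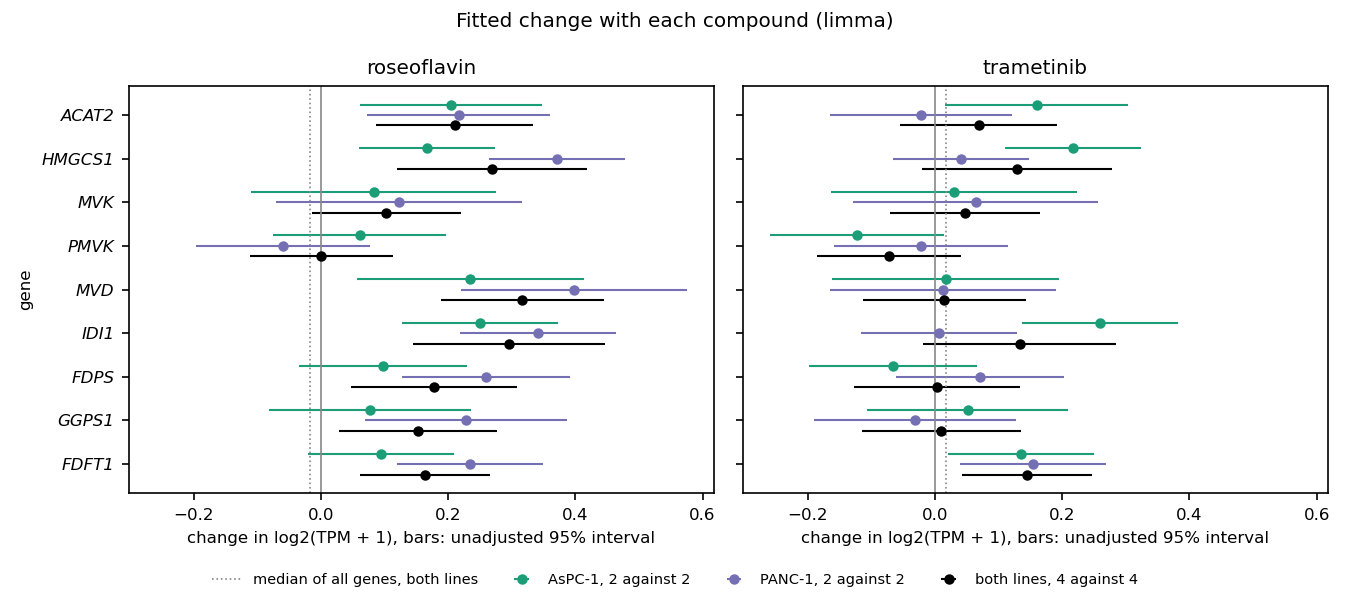
Fitted change with roseoflavin (left) and trametinib (right) for each member, with unadjusted 95% intervals, per line and over both lines; the dotted line is the median of all genes. With roseoflavin, the PANC-1 estimates of HMGCS1 (0.37) and MVD (0.40) lie farthest right, and with trametinib the AsPC-1 estimates of IDI1 (0.26) and HMGCS1 (0.22) lie apart from the PANC-1 estimates.

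The same comparisons were made for trametinib, and several counts of members lay near the share of all genes. The library with trametinib was higher in 4 of 4 comparisons for 2 of 9 members, HMGCS1 and FDFT1, against 9.66% of all genes. In AsPC-1 both trametinib libraries exceeded both others for 3 of 9 members (HMGCS1, IDI1 and FDFT1), against 24.0% of all genes, and in PANC-1 for 0 of 9, against 16.1%. At least 1.2-fold was reached by 1 of 9 in AsPC-1 without roseoflavin (IDI1, 9.47% of all genes) and by 0 of 9 with it (10.9%), and in PANC-1 by 0 of 9 in either state (7.82% and 8.12%). The AsPC-1 estimates were 0.26 for IDI1 (SE 0.0437, limma adjusted p 0.272), 0.22 for HMGCS1 (SE 0.0381, adjusted p 0.272), 0.16 for ACAT2 (SE 0.0511, adjusted p 0.332; 0.090 without the library with roseoflavin or that with both compounds) and 0.14 for FDFT1 (SE 0.0409, adjusted p 0.325). Those 4 members were also the ones under 0.05 before adjustment, against 9.42% of all genes. PANC-1 values of IDI1, HMGCS1 and ACAT2 were 0.0070 (-0.0097 and -0.0090 on the other scales), 0.040 and -0.022, whereas FDFT1 was at 0.15 (SE 0.0409, adjusted p 1.00), and was the only member under 0.05 before adjustment there (2.46%). No gene of the table passed in either line (0.0%, with 2691 genes before adjustment in AsPC-1 and 919 in PANC-1). The interaction of line and trametinib, also with 0.0% called (1854 genes before adjustment), was -0.25 for IDI1 (SE 0.0618, adjusted p 0.496) and -0.18 for HMGCS1 (SE 0.0539, adjusted p 0.508). Before adjustment these 2 of 9 members were under 0.05 with a negative difference, against 6.01% of all genes, and 0 of 9 with a positive one, against 3.68%. Over both lines the estimate for FDFT1 was 0.14 (SE 0.0422, adjusted p 0.861), for IDI1 0.13 and for HMGCS1 0.13, with 1 of 9 members (FDFT1) under 0.05 before adjustment against 3.12% of all genes, of which 938 in all and 0 after adjustment passed. The median over the members was 0.047, against 0.018 over all genes. The count of 3 members in AsPC-1 was 1 when TPM was rescaled without the mitochondrial genome or quantile normalised.

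For the combination against vehicle, compared within each line, 3 of 9 members were at least 1.2-fold higher in AsPC-1 (ACAT2, HMGCS1 and IDI1), against 7.17% of all genes, and 5 of 9 in PANC-1 (HMGCS1, MVD, IDI1, FDPS and FDFT1), against 10.2%. These comparisons share their vehicle library with those of the single compounds. The cut applies to log2(TPM + 1), while the ratios given here are of TPM. MVD in AsPC-1 was 1.202-fold higher by TPM but missed the cut on that scale. The AsPC-1 count of members ran from 3 to 4 under the alternatives. IDI1 had the largest ratio in AsPC-1 (1.44-fold), where each single compound had given 1.21-fold and 1.22-fold. In PANC-1 HMGCS1 had the largest ratio (1.34-fold), where roseoflavin alone had given 1.29-fold and the level with trametinib alone was 1.47% higher. FDPS was 1.02-fold higher in AsPC-1 and 1.26-fold higher in PANC-1. Over both lines limma gave 0.43 for IDI1 (SE 0.0973), 0.40 for HMGCS1 (SE 0.0966), 0.33 for MVD (SE 0.0731), 0.31 for FDFT1 (SE 0.0658) and 0.28 for ACAT2 (SE 0.0758), all with an adjusted p of 0.821. These 5 of 9 were under 0.05 before adjustment, against 1.93% of all genes, and 0.0% of genes passed after it (1017 before). Departure of the combination from the sum of the compounds was estimated between -0.094 (GGPS1) and 0.13 (MVD), with adjusted p of 1.00 for each member, 0 of 9 members under 0.05 before adjustment (1.8% of genes were, with a positive value), and 0.0% of genes called (536 before adjustment). For MVD the unadjusted 95% interval of that departure ran from -0.13 to 0.39, and the estimate was 0.061 without the PANC-1 trametinib library and 0.20 without the AsPC-1 one.

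The members were next compared with each other over the 8 libraries, after the mean of each line had been subtracted from log2(TPM + 1). These correlations are descriptions over 8 points that share the libraries and their scaling. Each of 8 members correlated with the mean of the other members at r between 0.820 (FDPS) and 0.951 (MVD). The closest pair was HMGCS1 and IDI1 (r = 0.978). PMVK stood apart, with r = -0.366 to the mean of the others and between -0.528 (FDFT1) and -0.0117 (FDPS) to single members.

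The sequences around their start sites were compared. RefSeq windows from 250 bases before to 50 bases after a start (GRCh38.p14) were found for 7 of the 9 members, 12 windows in all, some genes having several. They were searched on both strands for CCAAT, the core of the NF-Y box, for GGGCGG, the Sp1 box, and for TCACNCCAC, a form of the sterol regulatory element. At least 2 CCAAT matches were present in 6 of the 12 windows, which belong to HMGCS1, MVK, MVD, IDI1 and FDPS, while 10.8% of all 35116 windows hold 2 or more. GGPS1 had 1 match in 1 of its 3 windows and PMVK had 0, and at least 1 match was in 7 of the 12 windows, against 34.6% of all. GGGCGG was in 11 of the 12 windows (45.0% of all), and TCACNCCAC was in 0 of 12 (1.13% of all). MVK had 5 CCAAT matches in its window. The 3 IDI1 windows hold 3, 2 and 0, with a CCAATTGG counted on both strands, and the first and second of them overlap. The windows of 4 genes are shown, those of HMGCS1, MVD and FDPS, which enter the pathway, complete the mevalonate steps and build the chain, and that of PMVK, the member least like the others, 5′ to 3′ on the strand of the gene, with capitals for CCAAT and its complement ATTGG. MVD is at chr16:88663042-88663341 (minus strand), HMGCS1 at chr5:43313363-43313662 (minus strand), FDPS at chr1:155308616-155308915 (plus strand) and PMVK at chr1:154936670-154936969 (minus strand).
MVD: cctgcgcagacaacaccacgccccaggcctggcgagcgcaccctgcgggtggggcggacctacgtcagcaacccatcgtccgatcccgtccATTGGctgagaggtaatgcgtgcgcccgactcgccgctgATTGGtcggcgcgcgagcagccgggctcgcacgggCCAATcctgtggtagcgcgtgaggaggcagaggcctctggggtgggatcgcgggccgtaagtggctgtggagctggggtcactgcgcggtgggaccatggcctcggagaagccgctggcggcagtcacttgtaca
HMGCS1: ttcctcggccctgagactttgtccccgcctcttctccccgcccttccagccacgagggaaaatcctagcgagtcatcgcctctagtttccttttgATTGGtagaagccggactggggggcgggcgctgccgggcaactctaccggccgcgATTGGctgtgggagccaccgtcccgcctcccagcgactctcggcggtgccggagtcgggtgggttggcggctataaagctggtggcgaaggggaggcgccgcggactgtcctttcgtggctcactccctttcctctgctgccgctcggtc
FDPS: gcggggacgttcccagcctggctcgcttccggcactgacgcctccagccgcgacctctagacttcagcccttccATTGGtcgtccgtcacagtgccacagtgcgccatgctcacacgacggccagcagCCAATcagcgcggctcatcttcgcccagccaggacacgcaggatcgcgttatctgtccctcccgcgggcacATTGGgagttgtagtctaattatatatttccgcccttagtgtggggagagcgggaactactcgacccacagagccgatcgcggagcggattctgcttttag
PMVK: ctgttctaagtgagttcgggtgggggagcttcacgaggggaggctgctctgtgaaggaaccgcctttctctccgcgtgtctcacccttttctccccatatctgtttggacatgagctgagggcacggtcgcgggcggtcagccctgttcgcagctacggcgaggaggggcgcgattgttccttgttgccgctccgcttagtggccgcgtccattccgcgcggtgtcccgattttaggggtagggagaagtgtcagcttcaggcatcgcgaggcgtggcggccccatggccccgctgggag
MVD and FDPS show 3 capital blocks each, HMGCS1 shows 2 and PMVK shows none. HMGCS1 has another window (chr5:43313132-43313431), which overlaps the one shown and holds 0 CCAAT matches. A match of these letters is a description of the sequence, and binding was not measured.

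The lines themselves were compared over all treatments, 4 libraries against 4. Such differences were the rule, as 83.8% of all genes passed (62.3% higher in PANC-1 and 21.5% higher in AsPC-1), and 8 of 9 members passed. Before adjustment 62.7% of all genes and 6 of 9 members were higher in PANC-1. The median of all genes was 0.55 higher in PANC-1 on the deposited scale and 0.25 higher when TPM was rescaled without the mitochondrial genome, so the direction of small differences depends on the scale. FDFT1 had the largest difference among the members, 2.84-fold higher in AsPC-1 by TPM (log2 difference -1.48, SE 0.0422, limma adjusted p 1.70e-07) and 3.73-fold higher after rescaling. HMGCS1 was 1.67-fold higher in AsPC-1 (-0.73, SE 0.0620, adjusted p 3.44e-05) and 2.20-fold after rescaling. MVD was 2.15-fold higher in PANC-1 (1.05, SE 0.0530, adjusted p 2.41e-06) and 1.63-fold after rescaling, and ACAT2 was 1.65-fold (0.71, SE 0.0510, adjusted p 1.41e-05) and 1.26-fold higher there. For these 4 genes the libraries of the lines did not overlap on either scale. GGPS1 was 1.36-fold higher in PANC-1 (adjusted p 2.14e-04), but 1.04-fold after rescaling, with overlapping libraries (adjusted p 0.412), and its direction turned after quantile normalization (-0.043, adjusted p 0.473). MVK (1.22-fold, adjusted p 0.00311), PMVK (1.15-fold, adjusted p 0.00548) and IDI1 (1.15-fold, adjusted p 0.0255) were higher in PANC-1 by TPM, but after rescaling their ratios were below 1 (0.926, 0.880 and 0.872). PMVK passed in either direction, as its limma adjusted p was at most 0.0185 under every alternative, also those that turned its sign. The call for IDI1 was also lost without any 1 of 5 libraries: AsPC-1 with vehicle (adjusted p 0.0760) or roseoflavin (0.0797), or PANC-1 with vehicle (0.0839), roseoflavin (0.0816) or both compounds (0.0537). FDPS did not pass by TPM (0.934-fold, adjusted p 0.119), passed without the PANC-1 library with both compounds (adjusted p 0.0327), and was 1.41-fold higher in AsPC-1 after rescaling. Over all alternatives the limma adjusted p of FDPS ran from 5.87e-05 to 0.306.

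**Figure D4:**
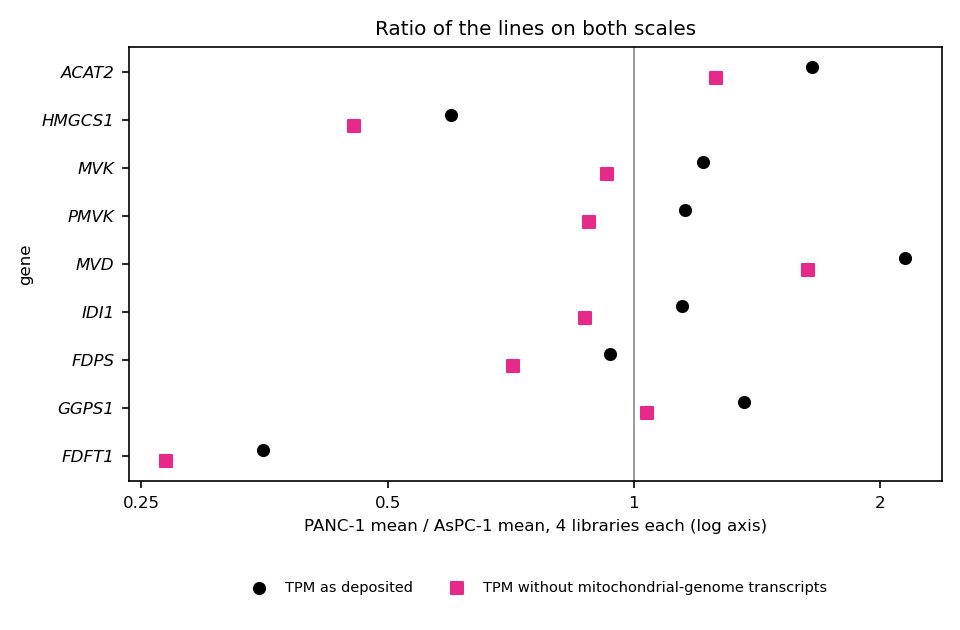
Ratio of the PANC-1 mean to the AsPC-1 mean for each member (4 libraries each, log axis), for TPM as deposited and for TPM without transcripts of the mitochondrial genome. FDFT1 (0.352 and 0.268) and HMGCS1 (0.597 and 0.455) lie below 1 and MVD (2.15 and 1.63) and ACAT2 (1.65 and 1.26) above 1 on both scales, whereas MVK, PMVK and IDI1 cross it.

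Genes around the pathway were read from lists chosen for their roles. Like the members, the lists were chosen with earlier results of these data known. None of their genes passed for roseoflavin in limma over all genes (0.0%), so the counts below give direction only. Of the 12 enzymes from squalene to cholesterol 11 were higher with roseoflavin over both lines, where 42.2% of all genes were, with a median of 0.14, beside 0.18 for the mevalonate arm and -0.017 for all genes. In PANC-1 their median was 0.15 and that of the mevalonate arm 0.23. In AsPC-1 the medians were 0.11 and 0.10. MSMO1, the C4 sterol methyl oxidase, was at 42.2 TPM with vehicle and 57.3 TPM with roseoflavin in PANC-1 and at 52.2 and 57.3 TPM in AsPC-1, DHCR7 at 63.8 and 75.6 and at 22.7 and 24.2 TPM, and SQLE, squalene epoxidase, at 62.8 and 72.7 and at 33.7 and 40.8 TPM.

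Of the 13 genes of SREBP control and sterol uptake, 12 passed the filter on low values. In PANC-1 12 of 12 were higher with roseoflavin (median 0.24), also on both other scales, where all genes had 49.6% higher and a median of 0 as deposited. The count in AsPC-1 was 6 of 12 (median 0.014, with 38.9% of all genes higher), 8 of 12 after quantile normalization and 9 of 12 after rescaling. The difference between the lines was positive for 12 of 12 (11 of 12 on each other scale), with a median of 0.23 and 6 of 12 under 0.05 before adjustment. Over all genes 58.0% were positive, the median was 0.036, and 8.11% were positive and under 0.05. INSIG1, which retains the SREBP complex in the endoplasmic reticulum and is itself an SREBP target, was at 53.2 and 76.4 TPM in PANC-1 and at 30.4 and 33.6 TPM in AsPC-1. STARD4, a sterol carrier, was at 4.09 and 5.54 TPM and at 10.5 and 11.9 TPM. When trametinib was present, STARD4 was at 3.56 and 6.33 TPM in PANC-1, but lower with roseoflavin in AsPC-1 (13.4 and 12.4 TPM).

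Of 4 genes of acetyl-CoA supply 3 were higher with roseoflavin over both lines (median 0.11), where 42.2% of all genes were. ACLY, which makes cytosolic acetyl-CoA from citrate, was at 123 and 145 TPM in PANC-1 and at 60.2 and 63.9 TPM in AsPC-1, and ACSS2, which makes it from acetate, at 23.5 and 30.0 TPM and at 58.0 and 53.1 TPM. When trametinib was present, ACSS2 in AsPC-1 went the other way (64.9 and 66.0 TPM). The 15 users of isoprenoids, among them the prenyl transferases, had 5 higher and 10 lower genes and a median of -0.017, equal to that of all genes, and 8 were higher after quantile normalization. RABGGTA, TRIT1 and RCE1 had the largest values among them (-0.08, 0.07 and -0.06). Of 5 genes of sterol efflux and LXR 4 were lower and 1 higher over both lines (median -0.18), where 42.2% of all genes were higher. Within PANC-1 3 were lower and 2 higher (median -0.058), where 49.6% of all genes were higher. MYLIP, a ubiquitin ligase induced by LXR, was at 13.3 TPM with vehicle and 11.7 TPM with roseoflavin in AsPC-1 and at 14.2 and 13.0 TPM in PANC-1, and ABCG1, a sterol exporter, at 13.4 and 11.3 TPM in AsPC-1 and at 1.02 and 0.694 TPM in PANC-1. When trametinib was present, ABCG1 in PANC-1 went the other way (0.891 and 0.919 TPM). These PANC-1 values of ABCG1 are near the floor, as are those of another of the 5 genes in AsPC-1 (0.292 to 0.731 TPM). NR1H3, which encodes LXR alpha, was at 80.9 and 66.6 TPM in AsPC-1 and at 5.67 and 5.92 TPM in PANC-1. Isozymes of the members were read as well. IDI2 was listed at 0 in every library, and ACAT1, the mitochondrial thiolase, was at 57.7 and 58.1 TPM in PANC-1 and at 14.9 and 15.1 TPM in AsPC-1. When trametinib was present, ACAT1 was lower with roseoflavin in both lines (61.1 and 56.8 TPM in PANC-1, 16.0 and 15.8 TPM in AsPC-1).

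**Figure D5:**
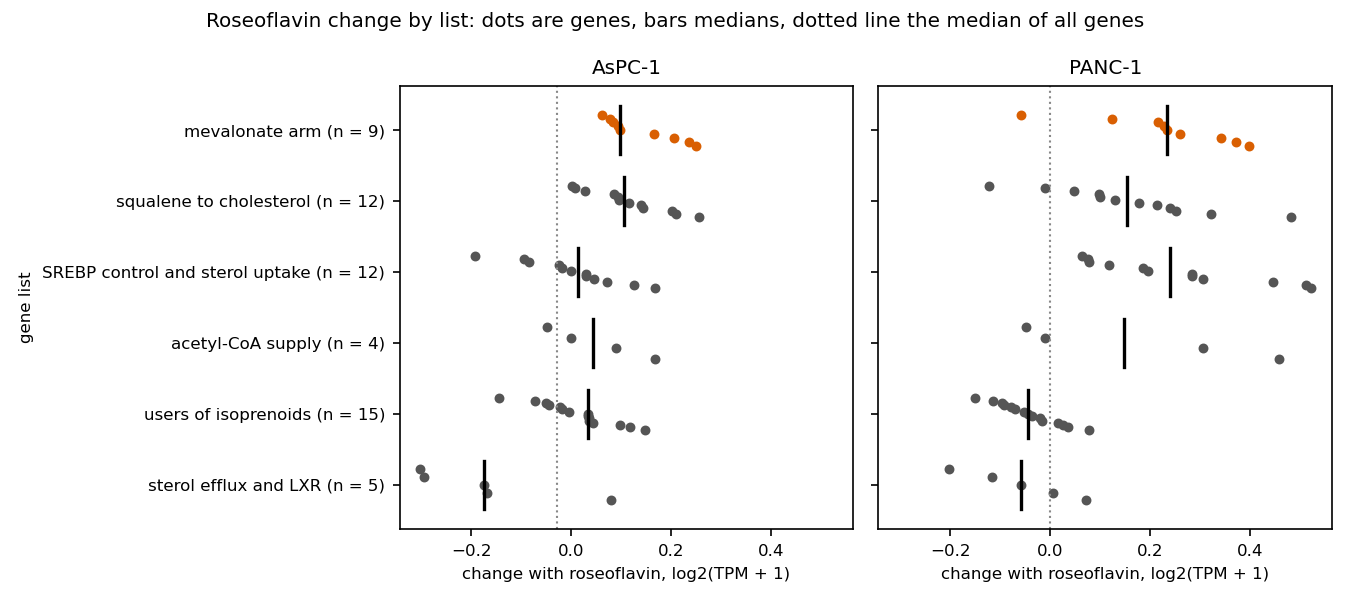
Fitted roseoflavin change of single genes by list in AsPC-1 (left) and PANC-1 (right), with bars for list medians and a dotted line for the median of all genes. The mevalonate arm has a median of 0.10 in AsPC-1 and 0.23 in PANC-1, the SREBP control list 0.014 and 0.24, and the users of isoprenoids 0.033 and -0.044.

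The genes most like the mean profile of the members were looked for among 7967 other protein-coding genes averaging 10 TPM or more, as a description over 8 libraries centred by line. The closest were PPT1, a lysosomal thioesterase (r = 0.986), SLC7A1, a transporter of cationic amino acids (r = 0.978), TXNRD1, thioredoxin reductase (r = 0.968), DHCR7, the last enzyme of the Kandutsch-Russell branch of cholesterol synthesis (r = 0.964), and CNBP, a nucleic acid binding protein (r = 0.961). TXNRD1 was at 107 TPM with vehicle and 171 TPM with roseoflavin in PANC-1, and at 154 and 195 TPM in AsPC-1. PPT1 was at 137 and 149 TPM in PANC-1, and at 25.4 and 26.7 TPM in AsPC-1. DHCR7 was thus the one sterol enzyme among these 5.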

How the data were processed

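RNA was measured in 8 libraries, 1 per line and treatment, made per the labels' protocols with the TruSeq stranded mRNA kit. The authors deposited 1 table of TPM per gene, as its header states. The submitters' processing notes name STAR 2.7.3a, HTSeq 2.0.2 and hg38, and the annotation, the strand setting and the step from reads to TPM are not given in the sources used here. Comma separators were removed and 985926 blank rows dropped, after which each library summed to 1000000 TPM. The depth behind the values is unknown.

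Members were selected by gene name. A gene was kept when 2 or more libraries reached 1 TPM (19122 genes, all 9 members among them) and analysed as log2(TPM + 1), a scale on which fold changes of low genes are understated. The linear models of limma 3.58.1 (R 4.3.3), with a trend in the prior variance, were adjusted by Benjamini-Hochberg over all genes at 0.05. They were also run on simulated data, with effects larger than the roseoflavin estimates of the members. That run does not show whether changes as small as theirs would be found. The models have 4 (additive), 2 (lines apart) and 3 (treatment as 4 levels) residual degrees of freedom. The labels do not say whether libraries of a line came from separate cultures. With 1 library per group, the residual spread is the departure of libraries from the fitted terms, so p-values do not measure the spread between replicates. For 1 library against 1, a gene counted from 1.2-fold on the log2(TPM + 1) scale, with no test. Named from each list were at most 3 genes with the largest absolute roseoflavin effect and a mean of at least 5 TPM, and for likeness 5 genes. Coordinates are from GENCODE 29 (GRCh38) by Ensembl identifier, and promoters from RefSeq (GRCh38.p14). Some genes of the lists are counted but not reported here by name. The members and lists were chosen with earlier results of these data known. The check of list directions on other scales was added after seeing the data. Alternatives were quantile normalization, rescaling without the mitochondrial genome, a pseudocount of 0.1, 2 other filters, no trend, no term for the line, and leaving out each library.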

Additional observations from a re-analysis of the deposited data

Results flagged for a closer look

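For 2 members the sign of the trametinib difference was opposite in the 2 lines, in both comparisons of each line. ACAT2 in AsPC-1 was at 32.8 TPM with vehicle and 35.0 TPM with trametinib, and at 36.2 TPM with roseoflavin and 42.6 TPM with both. The ACAT2 levels of PANC-1 in that order were 56.7, 55.2, 65.3 and 65.1 TPM. The difference between the lines was -0.18 on the log2(TPM + 1) scale (SE 0.0723, limma adjusted p 0.532). FDPS in the same order was at 82.6, 76.1, 85.3 and 84.5 TPM in AsPC-1 and at 68.9, 70.5, 80.5 and 86.9 TPM in PANC-1, with a difference of 0.14 (SE 0.0666, adjusted p 0.575). Neither difference passed the threshold.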

How the results depend on the processing

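No gene passed for a compound, the combination or an interaction under any alternative run, and over all counts and alternatives 197 values stayed within 1.5 times of the count reported and 7 did not. Included in the 197 are all those counts of 0 genes that stayed at 0, so the tally is no measure of stability for them. The line difference gave 8388 genes in place of 16027 with a mean of at least 10 TPM, a filter that tests fewer genes. Quantile normalization turned the line difference of MVK (-0.32), PMVK (-0.23), IDI1 (-0.28) and GGPS1 (-0.043), and rescaling without the mitochondrial genome turned MVK (-0.10), PMVK (-0.18) and IDI1 (-0.19). The ACAT2 difference between lines with roseoflavin became -0.024 and -0.051 under these, and ran from -0.058 to 0.082 without single libraries. IDI1 with trametinib in PANC-1 became -0.0097 and -0.0090, with -0.037 as the lowest and 0.051 as the highest value without single libraries. PMVK with roseoflavin became -0.0050 after rescaling and ran from -0.043 to 0.035 without single libraries. The departure of GGPS1 from the sum of the compounds ran from -0.20 to 0.0086.

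Members with both trametinib libraries above the others in AsPC-1 numbered 1 on either scale in place of 3. At least 1.2-fold with roseoflavin was reached in AsPC-1 by 2 members after rescaling in place of 1 without trametinib, and with trametinib by 1 (quantile) and 0 (rescaled) in place of 2. In PANC-1 with trametinib it was 3 after rescaling in place of 5. The cause of these shifts was not tested. No paired analysis was possible because the labels give no replicate numbers to pair by. The models and matched comparisons do pair libraries by line and other compound, and without the term for the line 56 genes in place of 1358 were under 0.05 for roseoflavin before adjustment. Leaving out 1 library moved 16 of 56 member estimates by over 1.5 times or turned their sign, and 0 of these 16 had passed the adjusted threshold. TPM keep no depth, so counting error cannot be given.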
